A study of Rattus norvegicus with 4 samples.

Results

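Mdk is the gene of midkine, a small secreted growth factor that binds heparin. It was followed here through every transcript whose gene name is Mdk in the deposited tables of long noncoding RNA (lncRNA). The rule found 1 row of 20524, and 1 further row lies within 50 kb of it. The gene was selected on its read counts in OGD against control in these same libraries, where it was among the 8 loci of 9579 (0.0835%) called by edgeR, so that difference is described without a test.

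The libraries hold total RNA of cortical astrocytes from newborn Wistar rats, grown on coverslips that paraffin dots held clear of a neuron layer in the same dish. There were 2 groups of 2 libraries. OGD cultures spent 45 min without glucose under low oxygen and then 24 h in ordinary medium and air, a form of ischemic preconditioning. Control cultures were untreated and shared the same co-culture with neurons. Nothing in the labels says that the libraries of a group are separate cultures. The p-values weigh the group difference against the spread within groups, which may be only technical. They therefore cannot speak for independent cultures. Summed lncRNA counts were 2646300 and 2513804 in the OGD libraries, against 2607020 and 2631684 in the control libraries.

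Midkine and its relative pleiotrophin form a family of their own. Midkine was found as a product of a gene induced by retinoic acid, is abundant in the embryo and scarce in most adult tissue, and appears again after injury, including in astrocytes near a cerebral infarct in the rat. It acts through receptors that include the phosphatase Ptprz1, the kinase Alk and the lipoprotein receptor Lrp1, and it binds the heparan sulfate and chondroitin sulfate chains of proteoglycans.

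The Mdk row is a NONCODE transcript that carries the AceView name of variant b of the gene. The tables place it on chromosome 3 from 80841981 to 80843497, a span of 1517 bases, with a listed length of 771 bases. The listed length is shorter than the span, as for a spliced transcript, but the tables give no exons and no strand. The genome build in the submitters' processing notes is mm9, a mouse one, although the tables list 20 autosomes and rat identifiers, so positions are given as the tables have them and without a build. In the RefSeq table of assembly GRCr8, Mdk is a protein-coding gene with 4 transcripts, each with a protein record, and its neighbours are Chrm4 and Dgkz. Whether reads of the midkine messenger RNA are among the counts of this row was not tested.

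The Mdk transcript was abundant in both OGD libraries and near the detection limit in both control libraries. It had 447 and 289 counts in OGD libraries 1 and 2, against 5 and 3 counts in control libraries 1 and 2. Both OGD values lay far above both control values, and the groups did not overlap, which was so for 28.0% of tested loci in one direction or the other. In the deposited FPKM, which scale counts to transcript length and library total, it stood at 23.3 and 14.98 in OGD libraries, against 0.260 and 0.148 in control libraries. Scaled to CPM (the share of reads in tested loci on a fixed base, with TMM normalization), it averaged 144 ± 33.8 CPM in OGD and 1.51 ± 0.441 CPM in control (SD, n = 2 each). The median transcript had 11 and 9 counts in OGD libraries and 11 and 9 in control libraries. Mdk therefore lay above the median transcript in every OGD library and below it in every control library.

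**Figure D1:**
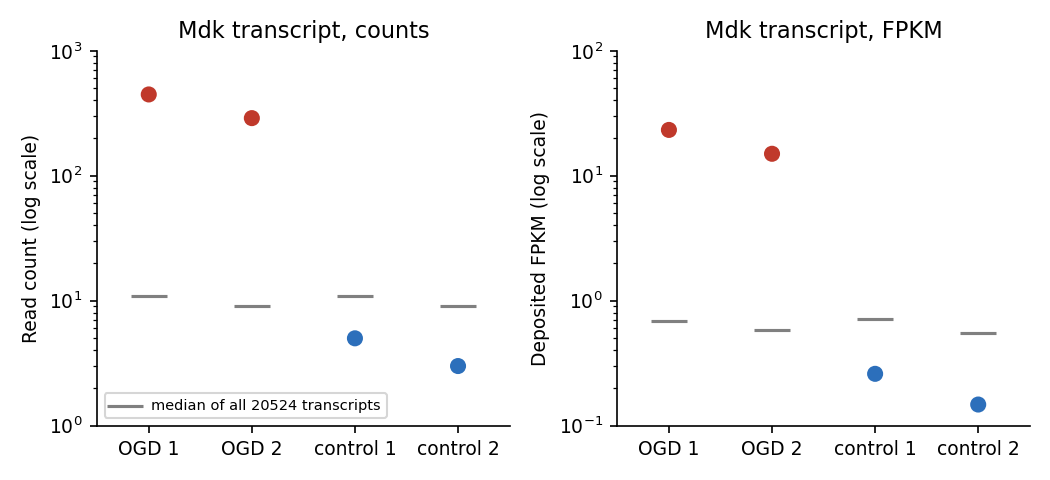
Read counts (left) and deposited FPKM (right) of the Mdk transcript in each library, both on log axes, with OGD in red, control in blue and a grey bar at the median of all 20524 transcripts of that library. The OGD libraries sit at 447 and 289 counts, above their medians, and the control libraries at 5 and 3 counts, below theirs.

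The scaled ratio was large, and its size was set by few control reads. Summed over libraries and scaled to library size, Mdk was 95.7-fold higher in OGD than in control, with an exact binomial 95% interval of 48.3 to 223, which covers counting error only. Within replicate number 1 the ratio of OGD to control was 92.5 (39.4 to 286), and within number 2 it was 101 (34.2 to 492). With 5 and 3 control counts the intervals are wide, so the closeness of these ratios says little. Mdk was also chosen for this difference, and the labels do not say what the replicate number marks. The edgeR log2 fold change was 6.53 (SE 0.37), which ranked 5th from the top among 9579 tested loci. Phldb3, bloyjo, snomu and RGD1311154 stood above it, each with at most 2 counts in each control library. In bulk RNA, more cells that make a transcript and more of it per cell cannot be told apart.

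The libraries of the OGD group differed from each other by more than counting error. OGD library 1 was 1.40-fold above OGD library 2, with a 95% interval of 1.20 to 1.63. On the log2 scale that is a gap of 0.48 (0.5 CPM added). The 1493 tested loci with an OGD level within 2-fold of that of Mdk had a median gap of 0.25, and 25.1% of them had a larger gap than Mdk. The control libraries stood at 1.82 and 1.20 CPM, a ratio of 1.52 with an interval of 0.296 to 9.80, so no difference between them was detectable at this depth.

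By abundance, Mdk stood near the top of the list in OGD and in its lower part in control. Ranked by count among 20524 transcripts, it was at place 923 in OGD library 1 and 1327 in OGD library 2, against 12641 in control library 1 and 13391 in control library 2. Many transcripts tie at low counts, and 612 in control library 1 had the same 5 counts. By FPKM its places were 335 and 600 in OGD libraries, against 13834 and 14766 in control libraries. In OGD libraries 98.4% and 97.1% of transcripts had a lower FPKM, against 32.6% and 28.0% in control libraries. Among 2685 tested loci that carry the name of a protein-coding gene, Mdk ranked 177 and 259 by CPM in OGD libraries, against 2641 and 2640 in control libraries. Tested loci are those with enough counts for the filter, which Mdk passed through its OGD counts. Its low control places in that set therefore follow from the filter. Of all listed transcripts, 35.4% in control library 1 and 29.8% in control library 2 had fewer counts than Mdk.

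**Figure D2:**
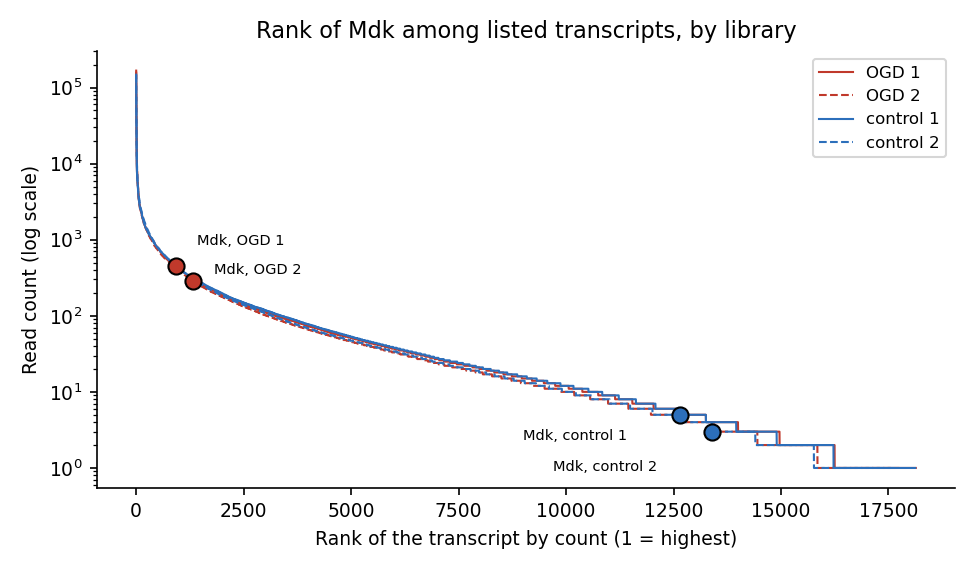
Read count (log axis) against rank by count for every transcript with at least 1 count, 1 line per library, with Mdk marked by a filled circle. The 4 curves nearly coincide, while Mdk lies at places 923 and 1327 in OGD and at 12641 and 13391 in control.

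The surroundings of Mdk were compared next, to see whether other listed transcripts of the region differed with it. Within 50 kb the rule found 1 other row, named after Dgkz, the gene of diacylglycerol kinase zeta, an enzyme that phosphorylates the lipid messenger diacylglycerol. It lies 11.1 kb beyond the end of the Mdk row on chromosome 3, from 80854619 to 80855564, and the 2 rows do not overlap. Dgkz had 8 and 6 counts in OGD libraries, against 5 and 6 in control libraries. Its groups did not overlap in CPM, at 2.76 ± 0.361 in OGD and 2.11 ± 0.404 in control (SD, n = 2 each), but 26.0% of all listed rows show no overlap in one direction or the other. The ratio of its summed counts was 1.32, with an interval of 0.559 to 3.22 that includes 1. Its counts were too low for the filter before the test, so it has no p-value.

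Farther out the levels on either side of Mdk were much closer between groups than its own. The nearest row after it with a mean of at least 10 counts, leechey, lies 86.1 kb away, just outside the 50 kb window. It had 15 and 6 counts in OGD libraries, against 20 and 14 in control libraries, and the groups overlapped in CPM. Before Mdk, the nearest such row was jeychey, 207.1 kb away, with 43 and 40 counts in OGD libraries and 23 and 33 in control libraries. Its groups did not overlap, which was so for 28.0% of tested loci in one direction or the other. The log2 fold changes were -0.64 (SE 0.53) for leechey and 0.61 (SE 0.35) for jeychey, with an adjusted p of 1.00 for each by edgeR's quasi-likelihood test. Neither locus carries a gene symbol.

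Across 500 kb on either side of Mdk, 23 other rows formed 20 loci, of which 14 had enough counts for the test. By edgeR 0 of the 14 passed the adjusted threshold of 0.05, 0 had an unadjusted p under 0.05, and DESeq2 called 0. Over all tested loci edgeR called 0.0835% and DESeq2 0.397%, and 2.34% had an unadjusted p under 0.05 in edgeR. The log2 fold changes of the 14 loci lay between -0.82 and 0.61, with 4 above and 10 below 0 and a median of -0.20, beside a median of -0.0016 over all tested loci. Of rows named after genes of the region, Mapk8ip1, a scaffold of the JNK kinase pathway, averaged 50.3 ± 3.38 CPM in OGD and 45.9 ± 5.13 CPM in control (SD, n = 2 each). Harbi1l, an earlier name of the autophagy gene Atg13 in the RefSeq table, averaged 10.6 ± 2.72 CPM in OGD and 15.1 ± 2.85 CPM in control (SD, n = 2 each). By FPKM, Mdk ranked 1 among the 24 rows of this region in each OGD library, against 20 in control library 1 and 22 in control library 2. On the whole of chromosome 3, 707 loci were tested and edgeR called Mdk, the call for which it was chosen, and no other; that call was lost without either control library and without OGD library 1.

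**Figure D3:**
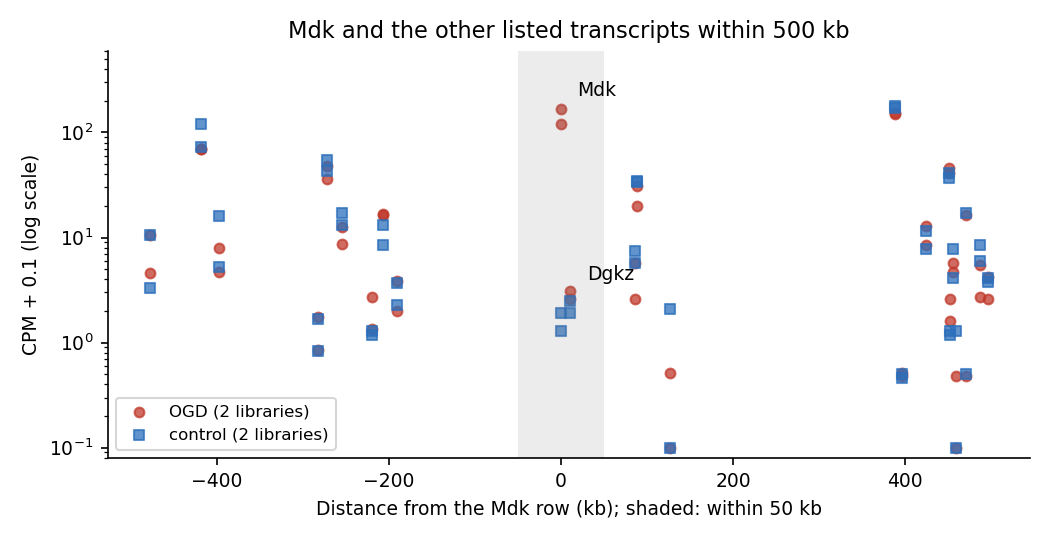
CPM plus 0.1 (log axis) of Mdk and the 23 other listed rows within 500 kb, against the distance in kb between their ends and the Mdk row, with 1 red circle per OGD library and 1 blue square per control library. At Mdk the red circles lie far above the blue squares, while the red and blue marks of Dgkz and of the other rows lie close together or mixed.

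The partners of midkine were then looked up by name, and few of them were matched to a row. Here and in the lists that follow, a gene name stands for lncRNA rows at that gene. Their values need not follow the messenger RNA. Pleiotrophin (Ptn) was not analysed here, since its name was matched to none. Of 21 genes of receptors and binding partners, 3 had a row and 2 were tested. By edgeR 0 of these 2 passed, 0 had an unadjusted p under 0.05, and DESeq2 called 0. Over all tested loci the shares were 0.0835%, 2.34% and 0.397% in that order, so counts from 2 loci say nothing about the list. Vcan, the gene of the chondroitin sulfate proteoglycan versican, to which midkine binds, had 309 and 165 counts in OGD libraries, against 332 and 261 in control libraries. Lrp1, the endocytic receptor that takes up midkine, had 109 and 81 counts in OGD libraries, against 104 and 114 in control libraries. For both genes the groups overlapped in CPM. The log2 fold changes were -0.28 (SE 0.31) for Vcan and -0.15 (SE 0.25) for Lrp1.

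Cspg5, the gene of neuroglycan C, a brain proteoglycan that binds midkine, was too low to be tested. It had 9 and 7 counts in OGD libraries, against 2 and 3 in control libraries. Its groups did not overlap, as was so for 26.0% of all listed rows. Per transcript length, the Mdk row at 19.1 ± 5.85 FPKM in OGD was higher than the rows of Vcan at 8.82 ± 3.81 FPKM and Lrp1 at 3.70 ± 0.781 FPKM (SD, n = 2 each). This compares lncRNA rows and not the amounts of midkine and its partners. In control Mdk was the lowest of the 3, with Vcan at 10.8 ± 2.24 FPKM, Lrp1 at 4.13 ± 0.106 FPKM and Mdk at 0.204 ± 0.0794 FPKM (SD, n = 2 each). In control, Mdk and Vcan lay further apart than the spread of their libraries. In OGD their values did not overlap, at 23.3 and 14.98 FPKM for Mdk and 11.5 and 6.13 FPKM for Vcan. The 2 OGD libraries of each locus also differed widely.

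Genes that build the sugar chains to which midkine binds were compared by level, since too few were tested for a count of calls to say anything about them. Of 29 genes of heparan sulfate synthesis and editing, 6 had a row and 3 were tested. Ext1, a subunit of the enzyme that polymerises heparan sulfate, had 50 and 40 counts in OGD libraries, against 25 and 38 in control libraries, a log2 fold change of 0.55 (SE 0.37). Glce, the epimerase of the chain, averaged 13.6 ± 4.34 CPM in OGD and 12.8 ± 7.81 CPM in control, and Ndst2, an N-sulfotransferase, 3.91 ± 1.40 CPM in OGD and 4.19 ± 0.268 CPM in control (SD, n = 2 each). Of 16 genes of chondroitin sulfate synthesis, 3 had a row and 1 was tested. That one, Chsy3, which encodes a chondroitin synthase, averaged 16.3 ± 2.29 CPM in OGD and 17.8 ± 3.02 CPM in control (SD, n = 2 each). Csgalnact2 and Dsel, which act in chondroitin and dermatan sulfate synthesis, had at most 6 counts in any library. By edgeR 0 of the 4 tested loci passed, beside 0.0835% of all tested loci, 0 had an unadjusted p under 0.05, and DESeq2 called 0.

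Other secreted factors were compared as a group, with 11 of 26 genes listed and 7 tested. By edgeR 0 passed, 1 had an unadjusted p under 0.05, and DESeq2 called 0, where the shares over all tested loci were 0.0835%, 2.34% and 0.397% in that order. That 1 was Igf2, the gene of insulin-like growth factor 2, with 13 and 16 counts in OGD libraries, against 5 and 7 in control libraries. Its groups did not overlap, as was so for 28.0% of tested loci, and its log2 fold change was 1.31 (SE 0.50, adjusted p = 1.00 in edgeR). Igf2 was named after its values were seen. Hbegf, another heparin-binding growth factor gene, had 110 and 96 counts in OGD libraries, against 100 and 109 in control libraries. Vegfb, of the vascular endothelial growth factor family, averaged 70.2 ± 7.27 CPM in OGD and 71.8 ± 9.12 CPM in control (SD, n = 2 each). These 7 loci had a median log2 fold change of 0.0012, beside -0.0016 over all tested loci.

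Rows named after target and pathway genes of known inducers of midkine were looked up next. Whether these inducers were active in the cultures, or acted on Mdk, was not tested. Of 44 HIF target genes, which respond to low oxygen, 10 had a row and 6 were tested. By edgeR 0 were called, 0 had an unadjusted p under 0.05, and DESeq2 called 0. The shares over all tested loci were 0.0835%, 2.34% and 0.397% in that order. With so few loci, these counts say nothing about the list. Pfkfb3, which encodes a regulator of glycolysis, averaged 171 ± 15.97 CPM in OGD and 141 ± 46.4 CPM in control (SD, n = 2 each). Vegfa had 756 and 2197 counts in OGD libraries, against 952 and 2142 in control libraries, and Lox, a collagen cross-linking enzyme gene, had 4 and 2684 in OGD libraries, against 4 and 3202 in control libraries. Both divided the libraries by replicate number. The 6 HIF targets had a median log2 fold change of -0.089.

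Of 22 genes of retinoic acid signalling, 5 had a row and 1 was tested. The tested locus was Rxra, a nuclear receptor gene, with 12 and 15 counts in OGD libraries and 22 and 11 in control libraries. Neither edgeR nor DESeq2 called it. Over all tested loci edgeR called 0.0835% and DESeq2 0.397%, so 1 locus without a call says nothing about the list. Rdh10, which encodes an enzyme that makes retinaldehyde, and Tgm2, a transglutaminase gene, had at most 6 counts in any library. The groups of Rxra overlapped, at 5.39 ± 1.23 CPM in OGD and 6.19 ± 2.56 CPM in control (SD, n = 2 each).

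**Figure D4:**
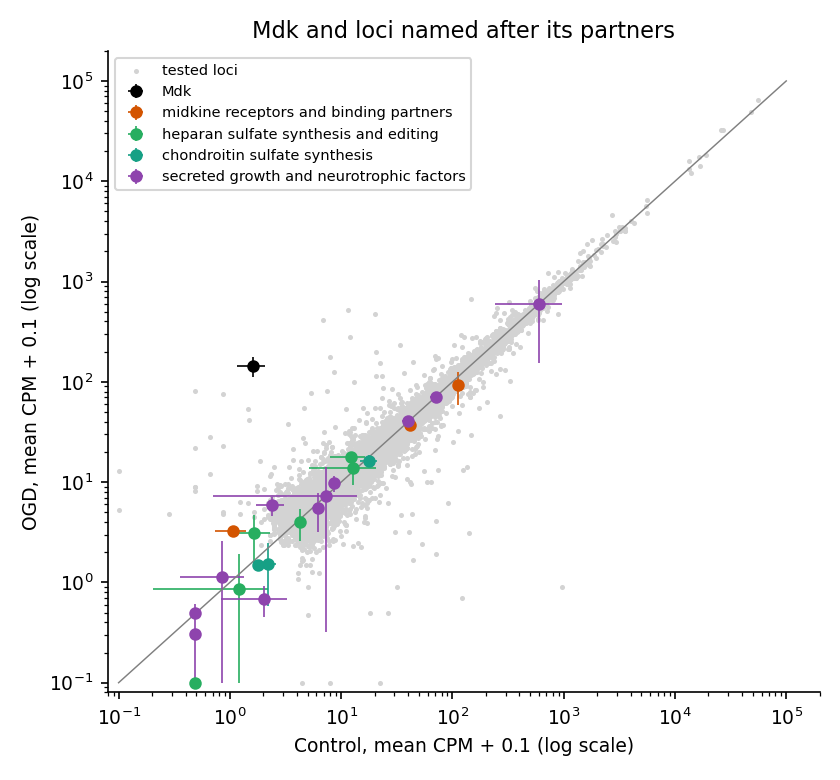
Mean CPM plus 0.1 in OGD (vertical, log axis) against control (horizontal, log axis), with bars of 1 SD over 2 libraries for Mdk and for loci named after its receptors and binding partners, sulfated sugar chain enzymes and other secreted factors, and grey points for all tested loci. Mdk stands at 144 CPM in OGD and 1.51 CPM in control, far from the line of equal levels, near which Vcan, Lrp1, Ext1 and Hbegf lie. Some scarcer loci lie farther from that line than Vcan, Lrp1, Ext1 and Hbegf, but nearer to it than Mdk. In OGD and control, Igf2 is at 5.78 and 2.30 CPM, Cspg5 at 3.15 and 0.962 CPM, and Fgf1 at 0.585 and 1.94 CPM.

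Profiles most like that of Mdk were sought among all tested loci, as a description. Likeness was the root mean square difference of log2 CPM over the 4 libraries after centring each locus on its own mean, with smaller values for closer shapes. A prior count of 2, scaled to library size, was added before taking logs. It narrows differences that rest on few counts, and the order of loci without it was not tested. The 5 nearest loci were bloyjo at 0.33, RGD1311154 at 0.35, syby at 0.37, Syn1 at 0.83 and blyko at 0.84. The next 5 lay between 0.89 and 1.09, and the median over all other loci was 3.01. RGD1311154 is an earlier name of Kctd17 in the RefSeq table, and Syn1 is the gene of the synaptic vesicle protein synapsin I. The 5 loci lie on chromosomes 15, 7, X, X and 14, so 0 of them shares chromosome 3 with Mdk. That chromosome holds 707 of the 9579 tested loci, so 0 among 5 says nothing about the region.

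The 5 loci differed in level and in how the OGD libraries compared. By CPM, Mdk was higher in OGD library 1 than in OGD library 2, at 168 and 121, as were Syn1 at 36.9 and 18.8 and blyko at 218 and 137. The locus bloyjo had the other order, at 72.3 and 90.9 CPM in OGD libraries, and so did RGD1311154 at 69.3 and 82.6 CPM. The locus syby was level across OGD libraries, at 415 and 415 CPM. In length-scaled terms bloyjo was closest to Mdk in OGD, with means of 19.7 and 19.1 FPKM.

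**Figure D5:**
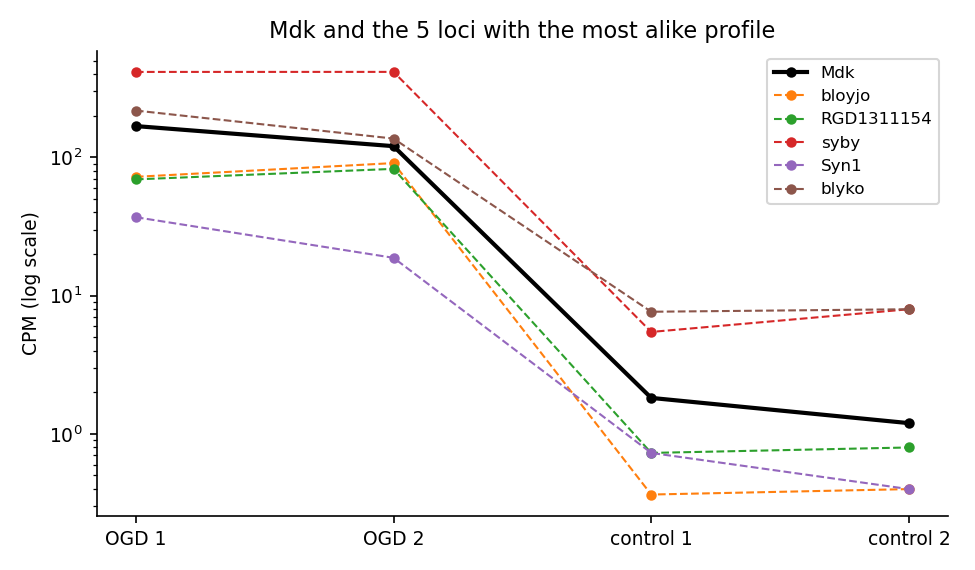
CPM (log axis) of Mdk (black) and of the 5 loci with the most alike profile (coloured) in OGD libraries 1 and 2 and control libraries 1 and 2. All 6 lines are high in both OGD libraries and low in both control libraries, with Mdk at 168 and 121 CPM in OGD and at 1.82 and 1.20 CPM in control.

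Cell type markers were read from lncRNA rows at the marker genes, and so check the labelled cell type weakly. Of 12 astrocyte markers 4 had a row, and their sum ranged from 30.9 to 64.4 CPM in OGD and from 34.3 to 50.9 CPM in control, led by Gfap. Of 9 endothelial and mural markers 3 had a row, with sums of 25.4 to 32.4 CPM in OGD and 4.37 to 8.37 CPM in control. That difference came from Abcc9, with 85 and 54 counts in OGD libraries and 6 and 17 in control libraries. Its groups did not overlap, as was so for 28.0% of tested loci in one direction or the other. Its log2 fold change was 2.61 (SE 0.58), and it passed in neither edgeR nor DESeq2 (adjusted p = 0.0872 in DESeq2). Pecam1 and Tek, which define endothelial cells, had at most 6 counts in any library. Of 12 neuron markers 5 had a row, with sums of 110 to 121 CPM in OGD and 89.9 to 118 CPM in control, led by Gria2 at 81.5 ± 15.7 CPM in OGD and 95.4 ± 20.1 CPM in control (SD, n = 2 each). Within that list Syn1 had 98 and 45 counts in OGD libraries, against 2 and 1 in control libraries. Its log2 fold change was 5.50 with an SE of 0.63, and it did not pass in edgeR (adjusted p = 0.185). Rbfox3 had 6 and 19 counts in OGD libraries, against 19 and 20 in control libraries. Of 10 microglial markers 3 had a row, with Ptprc highest and sums of 10.9 to 35.9 CPM in OGD and 28.4 to 43.4 CPM in control. Of 10 markers of the oligodendrocyte lineage 3 had a row, with Cspg4 highest and sums of 7.91 to 10.01 CPM in OGD and 8.01 to 17.1 CPM in control. Of 8 fibroblast and meningeal markers 3 had a row, with Fn1 highest and sums of 1094 to 1588 CPM in OGD and 680 to 1736 CPM in control. The part of Abcc9 and Syn1, which were high in the same libraries as Mdk, was not tested.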

How the data were processed

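The authors deposited 1 table per library with whole-number read counts and FPKM of 20524 transcripts, per the file headers. Per the submitters' processing notes the tools included HISAT2 and StringTie. Not given in the sources used here were versions, counting program and strand setting. The deposited FPKM imply library totals of 24934040 and 25016962 in OGD and 24949814 and 26371055 in control.

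Rows sharing a gene name on 1 chromosome were summed to 17283 loci, after names from the Ensembl column, StringTie identifiers, RefSeq accessions, AceView or the transcript identifier. OGD was compared with control by edgeR 4.0.16 in R 4.3.3 (filterByExpr, TMM, quasi-likelihood F test on group, Benjamini-Hochberg over 9579 loci). SE is the absolute log2 fold change over the square root of F. DESeq2 1.42.0 was an alternative. Intervals are exact binomial ones at 95%. On simulated counts for the 9579 loci, edgeR called 0% of 50 loci changed 2-fold, 48% at 4-fold and 100% at 16-fold. Those counts were drawn independently at the fitted trend of dispersion, without spread particular to a locus or a replicate number. The shares may thus overstate what is called in the real data. Syn1, at a log2 fold change of 5.50, was not called (adjusted p = 0.185 in edgeR).

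Mdk, the lists and tests were chosen with earlier results of these data known. Named are Mdk, rows within 50 kb and the nearest row with a mean of 10 counts on each side. Also named are all receptors and partners with a row and the 3 most abundant members of each other list. So are the 5 most alike profiles and the leading marker of each cell type. Outside this rule, Igf2, Fgf1, Pecam1, Tek, Rbfox3, neechey and the loci ranked above Mdk were named with results known.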

Additional observations from a re-analysis of the deposited data

How the results depend on the processing

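Of all tested loci edgeR called 8. DESeq2 called 38, the replicate block gave 22, rows as deposited gave 1, and dropping the filter on low counts gave 0 (403 at an unadjusted p under 0.05). The count was 8 with DESeq2 size factors and was 10 with totals implied by FPKM. With 1 library left out it ranged from 0 to 12. It was 0 when either control library or OGD replicate 1 was dropped, where 353 (control 1), 265 (control 2) and 257 (OGD 1) loci had an unadjusted p under 0.05. The cause was not tested, beyond the 16704 loci covered with no filter. The labels do not say what the replicate number marks, and deviations from group means correlated at 0.300 between libraries of 1 number.

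The log2 fold change of Mdk stayed positive under every alternative run, but its call, for which it was chosen, was lost in 5 of 10 refits: without a filter, with rows as deposited, and without control replicate 1, control replicate 2 or OGD replicate 1. It was 6.54 with the replicate block, and 6.28 to 6.86 with a library left out. On deposited FPKM it was 5.97 with a pseudocount of 0.1 and 4.03 with a pseudocount of 1, beside control values of 0.260 and 0.148 FPKM. Of list members other than Mdk, markers included, 1 locus (Syn1) passed with DESeq2 and 1 (Syn1) with the replicate block. Dgkz, the 1 other row within 50 kb, could be tested only without a filter, a setting in which 0 of 16704 loci were called. The settings therefore cannot say whether Dgkz differed.

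Of 214 values of 22 other named loci, 187 kept direction and side of the threshold and 27 changed sign, all for loci that had not passed. The cause was not tested. Left out of this tally were Igf2 and the loci with profiles most like that of Mdk, among them Syn1. Syn1 changed its side of the threshold with DESeq2 and with the replicate block. With all 4 libraries Vegfa stayed near 0, at -0.0069 with DESeq2, -0.0070 with DESeq2 size factors, -0.015 with totals implied by FPKM, -0.0038 without a filter and -0.089 with the replicate block. With a library left out, ranges that crossed 0 were -1.08 to 0.80 for Vegfa, -8.69 to 8.55 for Lox, -0.69 to 0.050 for Vcan, -0.42 to 0.90 for Glce, -0.50 to 0.22 for Ndst2, -0.28 to 0.066 for Chsy3, -0.15 to 0.11 for Vegfb, -0.087 to 0.17 for Hbegf, -0.017 to 0.66 for Pfkfb3, -0.56 to 0.30 for Rxra, -0.50 to 0.79 for Gfap, -0.44 to 0.013 for Gria2, -2.54 to 0.058 for Ptprc, -1.38 to 0.26 for Cspg4 and -0.35 to 1.07 for Fn1. With 2 libraries a group and 5 and 3 control counts, the size of the Mdk ratio is limited by the control depth.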

Other observations

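A locus 470.7 kb beyond Mdk, neechey, had counts that followed neither group nor replicate number. It had 1 and 39 counts in OGD libraries 1 and 2, against 47 and 1 in control libraries 1 and 2. It was named after its values were seen.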
